A study of Mus musculus with 12 samples.

Results

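The 44 collagen genes of the mouse were followed through young and aged brains with and without intracerebral hemorrhage (ICH). They were taken from the 54833 genes of the deposited table by their symbols, as every gene named Col, a number, the letter a and a chain number. The rule used symbols alone, though the family itself was picked with earlier results of these data known. All 44 had enough counts to be tested. The RNA came from caudate putamen around the hematoma of wild-type (WT) male C57BL/6 mice. Young animals (8 to 10 weeks of age) and aged animals (20 to 22 months) underwent either ICH or a sham operation, which gave 4 groups of 3 samples, and tissue was taken at 24 h. As each sample was a pool of 2 to 3 mice, the errors given here are those between pools and not between animals. ICH was induced with bacterial collagenase of type IV injected into the basal ganglia, whereas sham mice received saline. The ICH groups therefore differed from the sham groups both in bleeding and in exposure to an enzyme that digests collagen protein, and for collagen transcripts these cannot be told apart.

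Collagens are secreted or membrane proteins in which 3 chains wind into a triple helix. Type IV collagens form the network of the basement membrane, the sheet on which endothelial cells and pericytes of brain vessels rest, and in which type XVIII and type XV collagens are anchored. Fibrillar collagens such as types I, III and V build cable-like fibrils in the meninges and around larger vessels, and FACITs (fibril-associated collagens with interrupted triple helices) lie on such fibrils. The choroid plexus is a folded epithelium with a vascular stroma in the ventricle beside the caudate putamen. For it 5 genes were listed here with earlier results of these data known, Col4a3, Col4a4, Col8a1, Col8a2 and Col9a3. The 44 genes were sorted into 6 type IV chains, 3 chains of the basement membrane zone, 11 fibrillar chains, 6 type VI chains, 9 FACITs, 3 short-chain collagens, 4 transmembrane collagens and 2 others.

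Libraries held 28410896 to 37785160 counts on genes. By their content of choroid plexus marker RNA, 3 libraries stood apart. The summed level of 14 choroid plexus markers was 4372 CPM (counts scaled to library size) in young ICH 3, 1655 in aged ICH 1 and 2103 in aged ICH 2, against 13.2 to 535 CPM in the other 9 libraries. Ttr (transthyretin), the transport protein that defines this epithelium, alone reached 3651, 1423 and 1810 CPM in these libraries and 5.26 to 420 CPM elsewhere. The defining markers Kl and Folr1 were at 0 counts in no library. The 8 markers of striatal projection neurons, which define the labelled tissue, were present in every library and lowest in aged ICH 1 (summed 248.8 CPM) and young ICH 2 (366 CPM), with 601 to 2154 CPM in the others. Each count of collagen genes was also taken without the 3 libraries rich in choroid plexus markers, a setting added after the data were seen. It leaves aged ICH with 1 library that is then assumed to vary like the other groups.

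Per length of transcript, collagen expression in the caudate putamen was led by a few chains. Levels of different genes are compared as FPKM, the read density per kilobase of transcript and unit of library size that the authors deposited. In young sham samples Col6a1 was first with 21.5 ± 3.35 FPKM (mean ± SD, n = 3), followed by Col4a2 with 12 ± 0.6 FPKM, Col4a1 with 8.88 ± 0.368 FPKM and Col16a1 with 4.51 ± 0.349 FPKM. The ranges of the first 3 did not overlap with the next gene in the order, whereas Col16a1 overlapped Col25a1 (3.94 ± 0.791 FPKM). Col1a1, a chain of type I fibrils, held rank 15 of 44 with 1.43 ± 0.491 FPKM, and Col3a1 held rank 27 with 0.621 ± 0.170 FPKM. Over all samples 23 genes had a mean of at least 1 FPKM, and Col6a6 was below 0.1 FPKM. In young ICH samples the order at the top closed up, with Col6a1 at 20.9 ± 4.75, Col4a2 at 20.2 ± 2.17 and Col4a1 at 19.5 ± 3.46 FPKM, and the 3 ranges overlapped. In aged ICH samples Col6a1 stayed apart at 31.7 ± 4.38 FPKM, and Col4a2 (17.1 ± 1.73) and Col4a1 (16.9 ± 2.22) overlapped.

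Summed over all 44 genes, collagen FPKM was 95.1, 95.3 and 81.0 in young sham, 104, 120 and 168 in young ICH, 93.4, 110 and 104 in aged sham and 133, 135 and 128 in aged ICH samples. The sums after ICH lay above those of the sham samples of the same age in both comparisons. Type IV chains summed to 22.0 ± 1.27 FPKM in young sham and 42.3 ± 7.15 in young ICH, and to 22.7 ± 1.37 in aged sham and 36.2 ± 3.58 in aged ICH, with no overlap between the groups at either age. The 11 fibrillar chains summed to 16.4 ± 2.22 and 21.1 ± 3.50 FPKM in young sham and ICH, and to 18.9 ± 1.91 and 21.3 ± 2.89 FPKM in aged sham and ICH. The 5 choroid plexus collagens made up 23.0% of collagen FPKM in young ICH 3, 11.7% in aged ICH 1 and 16.2% in aged ICH 2, and 2.39 to 7.97% in the other 9 libraries. These are sums of deposited values and were not tested.

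**Figure D1:**
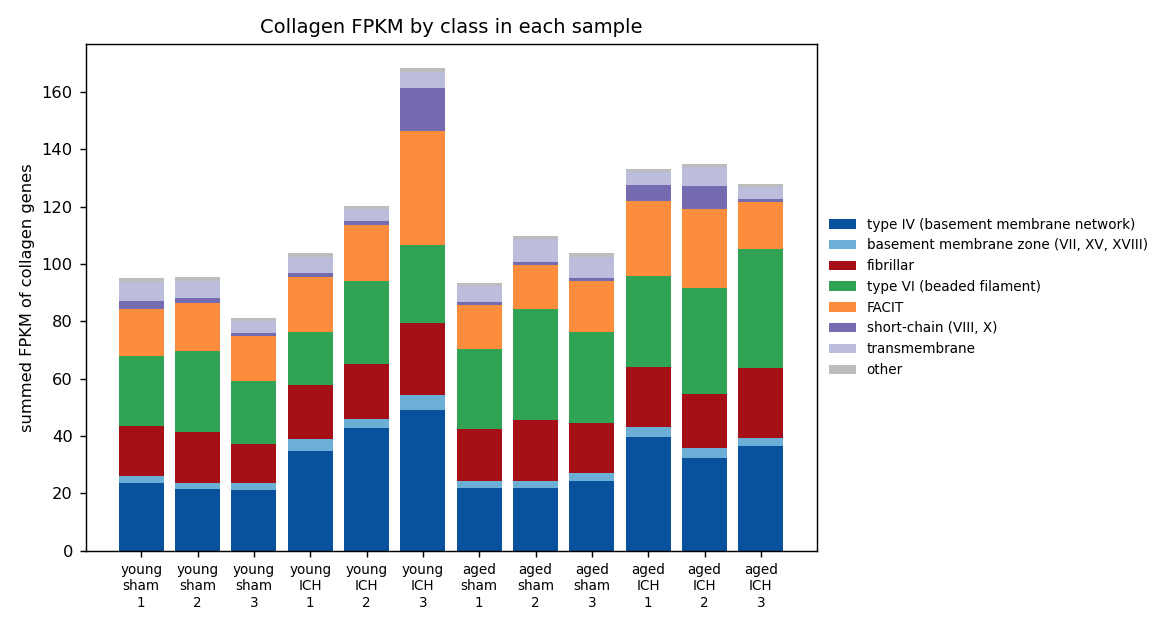
Stacked bars of the deposited FPKM of the 44 collagen genes, summed by class, in each of the 12 samples. The dark blue type IV block is larger in all 6 ICH samples (32.4 to 49.2 FPKM) than in the 6 sham samples (21.2 to 24.3 FPKM), and the purple short-chain block stands out in young ICH 3, aged ICH 1 and aged ICH 2.

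After ICH, 10 collagen genes rose in young mice, namely the basement membrane chains Col4a1, Col4a2, Col4a5 and Col18a1, the fibrillar chains Col2a1 and Col5a3, the FACIT Col16a1, the type VI chain Col6a4, the transmembrane Col13a1 and the short chain Col8a1. In aged mice 4 rose, Col2a1, Col4a1, Col5a3 and Col8a1. A gene was called a differentially expressed gene (DEG) when its fold change (FC) was above 1.5 or below 0.67 with an unadjusted *P* under 0.05 in edgeR's quasi-likelihood test over all 21495 genes tested. The limits are those of the study, which applied them to DESeq2 and not to edgeR. Adjusted *P* values are Benjamini-Hochberg values over the same 21495 genes. In young ICH vs. young sham, 10 of the 44 genes were upregulated (22.7%) where 8.66% of all genes tested were, and 1 was downregulated (2.27%, all genes 3.49%). With an adjusted *P* under 0.05 in edgeR's test, 6 were upregulated (all genes 5.88%) and 0 downregulated (all genes 2.11%), and DESeq2 called 10 up and 1 down by the unadjusted criterion. The 6 were Col4a1, Col4a2, Col18a1, Col2a1, Col5a3 and Col16a1, and the same 6 were called without the 3 libraries rich in choroid plexus markers and without young ICH 3 alone. The single downregulated gene was lost without young ICH 1, young ICH 3 or young sham 2, and 2 and 3 genes were downregulated without aged sham 2 and young sham 3. In aged ICH vs. aged sham, 4 were upregulated (9.09%, all genes 7.24%) and 3 downregulated (6.82%, all genes 2.82%), and 2 of each had an adjusted *P* under 0.05 in edgeR's test (all genes 4.15% and 1.32%). The count of upregulated genes in aged mice was 5 without the 3 libraries, 3 of them shared (Col2a1, Col4a1 and Col5a3), and 9 without aged ICH 3 or young ICH 3. The downregulated genes were 6 without the 3 libraries, including the 3. In whole tissue a change of a transcript cannot be told apart from a change in the number of cells that make it.

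The shift of the family median in young mice rested on young ICH 3. The median log2FC of the 44 genes was 0.37 in young and 0.06 in aged ICH vs. sham, where all genes tested had medians of 0.02 and 0.00. Without young ICH 3 the young median was 0.04, and without the 3 libraries rich in choroid plexus markers the aged median was −0.27. The groups did not overlap for 8 genes in young (18.2%) and 10 genes in aged ICH vs. sham (22.7%), shares below the 35.0% and 35.1% of all genes tested. Over 5 comparisons, namely the 2 of ICH with sham, the 2 of aged with young and the interaction of age and ICH, 33 calls were made on 22 genes, and 22 genes were called in none.

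**Figure D2:**
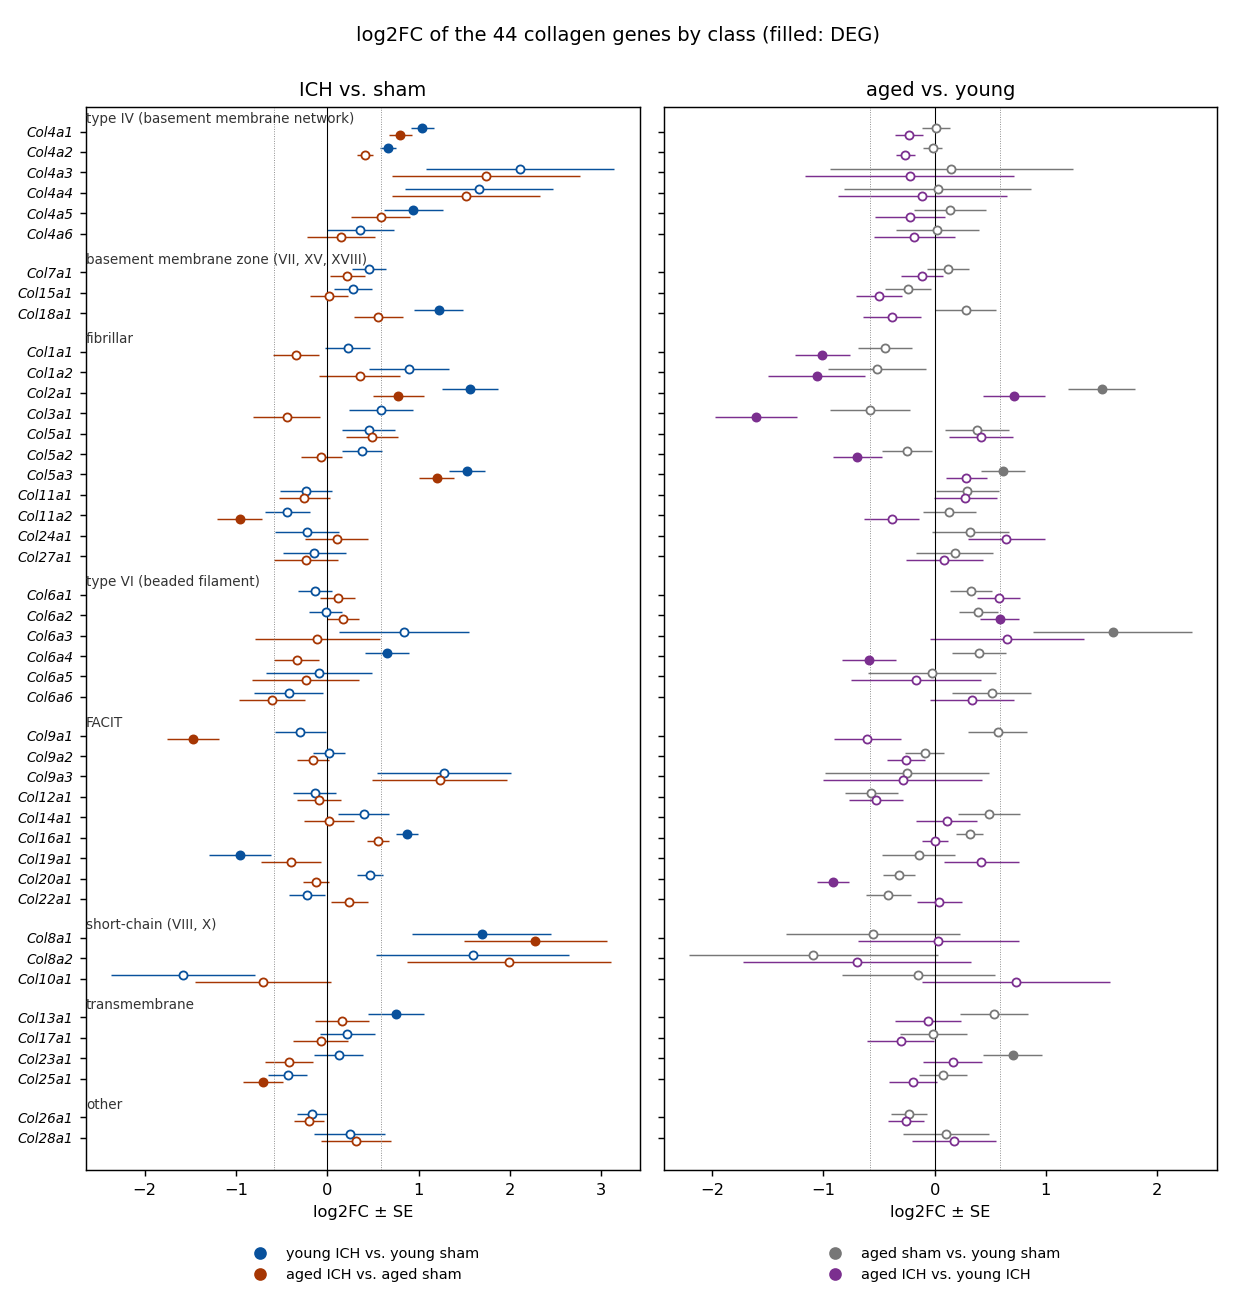
The log2FC (point) with its SE (line) of each of the 44 collagen genes, grouped by class, for ICH vs. sham on the left and aged vs. young on the right, with filled points for DEGs and dotted lines at FC 1.5 and 0.67. Type IV points lie at or above 0 for ICH vs. sham at both ages (0.15 to 2.12), and Col3a1, Col1a2 and Col1a1 lie farthest to the left for aged ICH vs. young ICH (−1.61, −1.06 and −1.01).

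The pair Col4a1 and Col4a2, which code for the 2 chains of the ubiquitous type IV trimer, rose after ICH in young mice, and Col4a1 also in aged mice. In CPM of the normalized library, Col4a1 (chr8:11198423-11312826, minus strand of GRCm38) was at 72.5, 68.3 and 66.8 CPM in young sham, 115, 151 and 162 in young ICH, 66.7, 65.8 and 76.7 in aged sham and 132, 103 and 130.3 in aged ICH. Every ICH sample lay above every sham sample at both ages. The change was log2FC 1.04 ± 0.127 SE, edgeR adjusted *P* = 0.00137 in young and log2FC 0.80 ± 0.127 SE, edgeR adjusted *P* = 0.00532 in aged mice, or 2.06-fold and 1.74-fold. Col4a2 (chr8:11312805-11449287, plus strand) was at 87.7, 80.5 and 80.6 CPM in young sham, 116, 138 and 140.0 in young ICH, 82.7, 80.5 and 82.9 in aged sham and 119.6, 97.2 and 111 in aged ICH. Its groups were apart at both ages too, with log2FC 0.66 ± 0.0871 SE, edgeR adjusted *P* = 0.00147 in young mice. In aged mice log2FC 0.41 ± 0.0871 SE, edgeR adjusted *P* = 0.013 fell short of FC 1.5. The response to ICH differed between the ages by log2FC −0.24 ± 0.179 SE, edgeR adjusted *P* = 1.0 for Col4a1 and log2FC −0.25 ± 0.123 SE, edgeR adjusted *P* = 1.0 for Col4a2, so that no difference of the response was shown. Age made no detectable change in sham mice, with log2FC 0.01 ± 0.127 (SE) for Col4a1 and −0.02 ± 0.0871 for Col4a2. Markers of endothelial cells were counted as well. Of 10 such markers, 4 were called up in young and 3 in aged ICH vs. sham (all genes 8.66% and 7.24%). A negative log2FC was seen for 1 of them in young and 3 in aged mice. Their summed levels were 294 to 350 CPM in young sham, 395 to 418 in young ICH, 329 to 374 in aged sham and 372 to 449 CPM in aged ICH samples. The aged ranges overlapped narrowly, with sham up to 374 CPM and ICH from 372 CPM. Of 10 pericyte and smooth muscle markers 0 were DEGs at either age in edgeR's test, 3 with an unadjusted *P* under 0.05 in each. Among all 21495 genes tested, 7132 in young and 6216 in aged mice had such a *P*. The part of cell numbers in the rise of the type IV chains was not tested.

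The level of Col4a1 relative to its partner was higher in ICH than in sham samples. The FPKM ratio of Col4a1 over Col4a2 was 0.733, 0.752 and 0.735 in young sham, 0.882, 0.972 and 1.02 in young ICH, 0.716, 0.725 and 0.820 in aged sham and 0.975, 0.936 and 1.04 in aged ICH samples. All 6 ICH samples were above all 6 sham samples. The ratio is given as a description and was not tested. The genes lie head to head, and their annotated first exons overlap by 22 bases, so that reads from these bases cannot be assigned without strand. The shared bases are printed because both transcripts start in them, with the GC box (GGGCGG on either strand) in capitals. Of all promoters in RefSeq, 7.19% hold this motif in the 22 bases before the start. That is an unlike region, as the printed bases lie within both first exons. A match of letters does not show a binding site.
Col4a1 and Col4a2 overlap, chr8:11312805-11312826, plus strand, GRCm38.p6: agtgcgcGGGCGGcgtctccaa

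The other type IV chains were low, and 3 of the 4 followed the choroid plexus markers or a single library. Col4a3 and Col4a4, chains of the specialized network known from kidney glomeruli, are a head-to-head pair on chromosome 1 with a gap of 71 bases, and Col4a5 and Col4a6 are one on chromosome X with a gap of 1308 bases. Col4a3 had 10.7 CPM in young ICH 3, 4.15 in aged ICH 1 and 5.18 in aged ICH 2, and 0.399 to 1.11 CPM in the other 9 libraries. Col4a4 had 12.3, 5.71 and 6.74 CPM in the same 3 libraries and 1.16 to 1.84 CPM in the others. These are the libraries rich in choroid plexus markers, and neither gene was a DEG, with log2FC 2.12 ± 1.03 (SE) and 1.66 ± 0.81 in young and 1.74 ± 1.02 and 1.52 ± 0.811 in aged ICH vs. sham. Col4a5 was at 6.25, 3.93 and 3.63 CPM in young sham, 6.56, 6.09 and 14 in young ICH, 4.43, 4.59 and 6.2 in aged sham and 8.59, 8.4 and 5.88 in aged ICH. It was upregulated in young ICH vs. sham (log2FC 0.94 ± 0.322 SE, edgeR adjusted *P* = 0.0617), but its log2FC was 0.46 without young ICH 3 and 0.80 without young sham 3, where the call was lost. Without young ICH 3 the log2FC in young mice were −0.77 for Col4a3 and −0.28 for Col4a4, and both genes were called up in aged ICH vs. sham (1.74 and 1.52) and in aged vs. young ICH (2.66 and 1.83). Without the 3 libraries Col4a3 was called down in young ICH vs. sham (log2FC −0.775), whereas Col4a4 was not (−0.28), and in aged mice neither was called (−0.52 and −0.265). Col4a6 ranged from 1.19 to 3.40 CPM and was called in no comparison. The median log2FC of the 6 type IV chains, 0.99 in young and 0.69 in aged ICH vs. sham, was 0.28 and −0.02 without the 3 libraries. The gap between Col4a3 and Col4a4 is shown because the 2 genes were high in the same libraries. On either strand it held no CCAAT box (the letters CCAAT), no GC box (GGGCGG) and no TATA box (TATAAA), which 13.3%, 20.7% and 4.41% of all promoters hold in the same length before their start.
Col4a3 and Col4a4 gap, chr1:82586850-82586920, plus strand, GRCm38.p6: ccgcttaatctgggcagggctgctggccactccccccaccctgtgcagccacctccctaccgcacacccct

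Among the collagens of the basement membrane zone, Col18a1 rose in young mice. Col18a1 codes for a heparan sulfate bearing chain whose C-terminal fragment is endostatin, and it was at 6.88, 4.92 and 4.46 CPM in young sham, 9.4, 9.69 and 18.9 in young ICH, 6.16, 7.69 and 5.93 in aged sham and 10.8, 10.6 and 7.73 in aged ICH. The young groups were apart (log2FC 1.22 ± 0.272 SE, edgeR adjusted *P* = 0.0108), with the highest value in young ICH 3, and the log2FC was still a DEG in each of 21 alternatives (0.68 to 1.43). The aged groups were apart as well, though narrowly, with log2FC 0.56 ± 0.27 SE, edgeR adjusted *P* = 0.197, which is not a DEG. The difference of the responses was log2FC −0.66 ± 0.381 SE, edgeR adjusted *P* = 1.0. Col7a1, the anchoring fibril collagen, and Col15a1, the nearest relative of Col18a1, were called in no comparison, with log2FC 0.46 and 0.28 in young and 0.22 and 0.02 in aged ICH vs. sham.

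**Figure D3:**
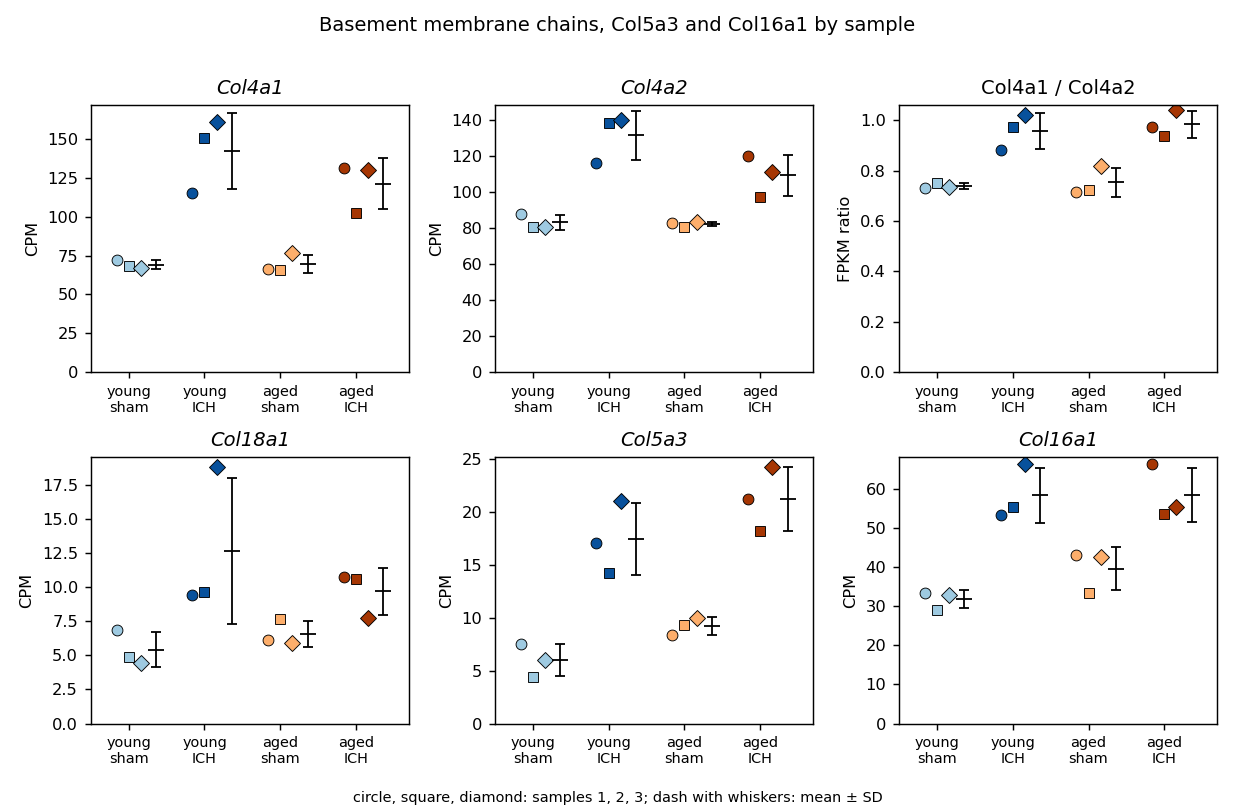
CPM of Col4a1, Col4a2, Col18a1, Col5a3 and Col16a1 and the FPKM ratio of Col4a1 over Col4a2 in each sample, with the mean ± SD of 3 samples per group as dash and whiskers. For Col4a1, Col4a2 and the ratio the 6 ICH samples lie above the 6 sham samples, and the ratio reaches 0.882 to 1.04 after ICH against 0.716 to 0.820 in sham.

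Type I and type III chains, the bulk of fibrils in most tissues, did not rise after ICH at 24 h by the criterion at either age, and were lower in aged ICH than in young ICH. Col1a1, which gives 2 of the 3 chains of type I collagen, was at 13, 10.1 and 6.27 CPM in young sham, 11.2, 11.2 and 11.8 in young ICH, 5.83, 9.78 and 5.96 in aged sham and 5.33, 5.82 and 5.88 in aged ICH. The young ICH samples (11.4 ± 0.361 CPM, mean ± SD, n = 3) all lay above the aged ICH samples (5.67 ± 0.304 CPM). Aged ICH vs. young ICH had log2FC −1.01 ± 0.247 SE, edgeR adjusted *P* = 0.215. Col3a1, the chain of type III, was at 8.01, 6.57 and 4.52 CPM in young sham, 9.81, 6.69 and 12.2 in young ICH, 3.44, 6.81 and 2.58 in aged sham and 2.54, 4.23 and 2.67 in aged ICH. All aged ICH samples were below all young ICH samples (log2FC −1.61 ± 0.367 SE, edgeR adjusted *P* = 0.185), and the call remained without each single library. An exon of Col3a1 overlaps another gene on the same strand. Col1a2, the partner of Col1a1, was at 21.1, 16.8 and 11.2 CPM in young sham, 18.5, 19.3 and 53.8 in young ICH, 7.58, 15.8 and 10.9 in aged sham and 16.2, 18.9 and 8.83 in aged ICH. Its aged and young ICH groups overlapped (log2FC −1.06 ± 0.436 SE, edgeR adjusted *P* = 0.479), and the call was lost without young ICH 3 (log2FC −0.37), aged ICH 1 (−1.14) or aged ICH 3 (−0.80). Col5a2, a chain of type V that joins type I fibrils, was at 6.25, 5.52 and 4.42 CPM in young sham, 5.57, 6.36 and 9.2 in young ICH, 3.54, 4.75 and 5.33 in aged sham and 5.02, 4.37 and 3.65 in aged ICH. Its young and aged ICH groups did not overlap (log2FC −0.69 ± 0.222 SE, edgeR adjusted *P* = 0.352), and the call was lost without young ICH 3 (log2FC −0.46). None of these 4 had an adjusted *P* under 0.05 in edgeR's test, though all had an unadjusted *P* under 0.05.

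Across the family, aged ICH vs. young ICH gave 2 upregulated (4.55%, all genes 2.21%) and 6 downregulated genes (13.6%, all genes 1.3%), and the groups did not overlap for 7 (15.9%, all genes 13.3%). With an adjusted *P* under 0.05 in edgeR's test 0 were called (all genes 0.0372% up and 0.014% down). An unadjusted *P* under 0.05 was found for 12 of the 44 genes and for 2050 of the 21495 genes tested. DESeq2 called 1 up and 6 down by the unadjusted criterion. Without young ICH 3 the counts were 8 up and 3 down, the latter Col1a1, Col3a1 and Col20a1, and without aged ICH 3 or young ICH 1 0 genes were up. Without the 3 libraries rich in choroid plexus markers they were 5 up and 7 down, where Col1a1 lost its call (log2FC −0.93). The median log2FC of the 44 genes was −0.18 (all genes −0.005), and 0.14 without young ICH 3.

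In sham mice these 4 genes had log2FC of −0.45 (Col1a1), −0.52 (Col1a2), −0.58 (Col3a1) and −0.25 (Col5a2) for aged vs. young, which passed no test. The difference between the age effects with and without ICH is the interaction, with log2FC −1.03 ± 0.51 SE, edgeR adjusted *P* = 1.0 for Col3a1 and log2FC −0.56 ± 0.347 SE, edgeR adjusted *P* = 1.0 for Col1a1. Whether the lower level was particular to ICH was therefore not shown. The summed FPKM of Col1a1, Col1a2 and Col3a1 was 2.23 to 4.31 in young sham, 3.97 to 7.64 in young ICH, 1.81 to 3.40 in aged sham and 1.94 to 2.95 in aged ICH samples. Of 11 meningeal and perivascular fibroblast markers, 0 were DEGs in aged ICH vs. young ICH in edgeR's test, with 0 at an unadjusted *P* under 0.05, and their summed level was 61.1 to 78.5 CPM in young ICH and 54.6 to 68.6 CPM in aged ICH samples. Of 10 pericyte and smooth muscle markers 2 were called lower in aged ICH (all genes 1.3%), and 3 had a positive log2FC. Their summed levels were 326 to 361 CPM in young ICH and 291 to 320 CPM in aged ICH samples. The part of either cell type in the difference was not tested. The 250 bases upstream of Col3a1 are printed as those of the chain with the largest age difference after ICH among the 44. The letters of the TATA box (TATAAA) are in capitals at bases 134 to 139. Of all promoters, 12.4% hold these letters in 250 bases before the start, and a match of letters does not show a binding site. A CCAAT box and a GC box, held by 33.8% and 32.7% of all promoters, are not in the stretch on either strand.
Col3a1 upstream, chr1:45311288-45311537, plus strand, GRCm38.p6: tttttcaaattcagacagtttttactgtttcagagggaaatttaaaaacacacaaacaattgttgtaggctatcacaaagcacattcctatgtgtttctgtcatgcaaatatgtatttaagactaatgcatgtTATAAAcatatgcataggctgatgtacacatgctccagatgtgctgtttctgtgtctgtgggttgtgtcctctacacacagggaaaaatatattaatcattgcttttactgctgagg

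Col1a2 parted from Col1a1 in the libraries rich in choroid plexus markers. Type I collagen is assembled from 2 chains of Col1a1 and 1 of Col1a2, and the FPKM ratio of Col1a2 over Col1a1 was 0.687 to 0.963 in 9 libraries. It was 2.40 in young ICH 3, 1.61 in aged ICH 1 and 1.71 in aged ICH 2. Col1a1 itself was 11.8 CPM in young ICH 3, near the 11.2 CPM of both other young ICH samples, whereas Col1a2 was 53.8 CPM against 18.5 and 19.3 CPM.

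Of the other fibrillar chains, Col5a3 and Col2a1 rose and Col11a2 fell. Col5a3, the third chain of type V collagen, was at 7.54, 4.44 and 6.04 CPM in young sham, 17, 14.2 and 21 in young ICH, 8.34, 9.34 and 10.0 in aged sham and 21.2, 18.2 and 24.2 in aged ICH. The groups were apart at both ages, with log2FC 1.53 ± 0.195 SE, edgeR adjusted *P* = 0.00137 in young and log2FC 1.20 ± 0.19 SE, edgeR adjusted *P* = 0.00531 in aged mice, and both calls were made in each of 21 alternatives. It was also higher in aged than in young sham mice (log2FC 0.62 ± 0.195 SE, edgeR adjusted *P* = 0.254), a call that was lost without aged sham 3 (log2FC 0.55) or young sham 2 (0.44). Col2a1, the chain of cartilage type II fibrils, had few counts (39 to 275 per library) and was at 1.27, 1.27 and 1.29 CPM in young sham, 2.81, 3.23 and 5.29 in young ICH, 3.28, 2.63 and 4.94 in aged sham and 7.67, 4.6 and 6.35 in aged ICH. All young ICH samples and all aged sham samples exceeded all young sham samples. It was upregulated in young ICH (log2FC 1.56 ± 0.302 SE, edgeR adjusted *P* = 0.00566) and in aged sham vs. young sham (log2FC 1.5 ± 0.303 SE, edgeR adjusted *P* = 0.117), and neither call was lost without any single library. The groups overlapped in aged ICH vs. aged sham (log2FC 0.78 ± 0.28 SE, edgeR adjusted *P* = 0.0906) and in aged ICH vs. young ICH (log2FC 0.72 ± 0.279 SE, edgeR adjusted *P* = 0.454). The first of these calls was lost without aged ICH 1 (log2FC 0.60), aged sham 1 (0.71) or aged sham 2 (0.59), and the second without aged ICH 1 (0.54), aged ICH 3 (0.70), young ICH 1 (0.54) or young ICH 2 (0.62).

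Col11a2, a chain of type XI collagen that nucleates thin fibrils, was at 33.9, 23 and 21.2 CPM in young sham, 22.1, 16 and 19.6 in young ICH, 23.9, 37.7 and 24.3 in aged sham and 12.3, 19.7 and 12.3 in aged ICH. It was lower in aged ICH than in any aged sham sample (log2FC −0.96 ± 0.247 SE, edgeR adjusted *P* = 0.0272), a call made in each of 21 alternatives, and no difference from the response in young mice was shown (log2FC −0.52 ± 0.345 SE, edgeR adjusted *P* = 1.0). Col5a1, Col11a1, Col24a1 and Col27a1 were called in no comparison, with log2FC from −0.25 to 0.49 in the 2 comparisons of ICH with sham. The median of the 11 fibrillar chains was 0.38 in young and −0.06 in aged ICH vs. sham. The stretch upstream of Col5a3 is shown because its call held at both ages, with 1 CCAAT box and 2 GC boxes in capitals (the latter read as CCGCCC, the reverse complement).
Col5a3 upstream, chr9:20815068-20815317, minus strand, GRCm38.p6: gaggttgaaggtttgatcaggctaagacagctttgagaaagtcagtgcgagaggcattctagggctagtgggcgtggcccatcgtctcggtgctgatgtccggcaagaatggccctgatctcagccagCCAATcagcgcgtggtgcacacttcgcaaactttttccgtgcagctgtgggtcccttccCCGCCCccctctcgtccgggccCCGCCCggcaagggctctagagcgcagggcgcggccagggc

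**Figure D4:**
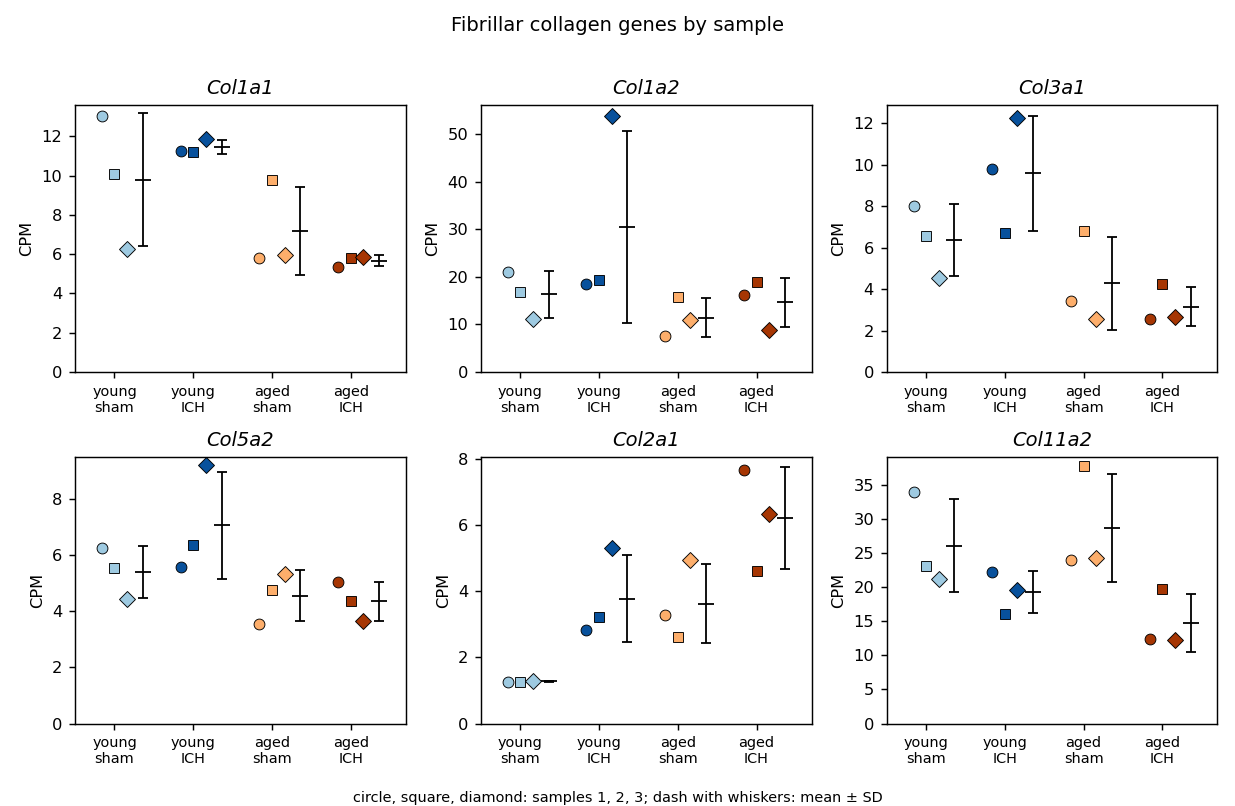
CPM of 6 fibrillar collagen genes in each sample, with the mean ± SD of 3 samples per group. Col1a1 and Col3a1 are lower in all aged ICH samples (up to 5.88 and 4.23 CPM) than in all young ICH samples (from 11.2 and 6.69 CPM), Col1a2 has a single high value of 53.8 CPM in young ICH 3, and Col2a1 is at 2.63 CPM or more in each sample outside the young sham group.

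Type VI collagen, a beaded filament around vessels and cells, held the chain with the highest mean level per length. Col6a1 was at 95.2, 116 and 84.4 CPM in young sham, 67.2, 108 and 94.7 in young ICH, 105, 153 and 113 in aged sham and 115, 133 and 153 in aged ICH and was a DEG in none of the comparisons. For aged ICH vs. young ICH the groups did not overlap and log2FC 0.58 ± 0.19 SE, edgeR adjusted *P* = 0.375 stayed just under FC 1.5. Col6a2, its partner chain, was at 19, 19.5 and 19.5 CPM in young sham, 14.8, 23.4 and 19.2 in young ICH, 25, 23.5 and 27.6 in aged sham and 27.2, 22.5 and 36.3 in aged ICH. Aged ICH vs. young ICH had log2FC 0.59 ± 0.176 SE, edgeR adjusted *P* = 0.322 with overlapping groups, and the call was lost without aged ICH 3 (log2FC 0.38) or young ICH 1 (0.43), and with DESeq2. Col6a3, the third chain of the usual trimer, was at 4.23, 3.71 and 1.68 CPM in young sham, 2.93, 2.93 and 11.5 in young ICH, 5.16, 7.18 and 17 in aged sham and 4.24, 18.3 and 4.81 in aged ICH. All aged sham samples exceeded all young sham samples (log2FC 1.60 ± 0.716 SE, edgeR adjusted *P* = 0.396), with the highest value in aged sham 3, and the call was lost without aged sham 3 (log2FC 0.94), young sham 1 (1.86), young sham 2 (1.72) or young sham 3 (1.30).

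Col6a4, a chain that can take the place of Col6a3, was at 5.97, 4.25 and 5.02 CPM in young sham, 5.51, 9.72 and 8.82 in young ICH, 6.79, 6.04 and 7.31 in aged sham and 6.33, 6.03 and 3.61 in aged ICH. It was upregulated in young ICH vs. sham (log2FC 0.66 ± 0.243 SE, edgeR adjusted *P* = 0.081), where the groups overlapped. In aged ICH vs. sham it had log2FC −0.33 ± 0.243 SE, edgeR adjusted *P* = 0.401, and the interaction passed the unadjusted criterion with log2FC −0.99 ± 0.344 SE, edgeR adjusted *P* = 1.0. The young call was lost without young ICH 2 (log2FC 0.50), young ICH 3 (0.58) or young sham 2 (0.54). Aged ICH was lower than young ICH (log2FC −0.59 ± 0.243 SE, edgeR adjusted *P* = 0.48), a call that was lost without aged ICH 3 (log2FC −0.37), young ICH 2 (−0.43) or young ICH 3 (−0.51). The exons of Col6a4 overlap 2 genes on the opposite strand, whose reads cannot be told apart without strand. Col6a5 and Col6a6 were called in no comparison.

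FACITs changed gene by gene. Col16a1, rank 4 per length in young sham, was at 33.4, 29.1 and 32.9 CPM in young sham, 53.4, 55.4 and 66.3 in young ICH, 43, 33.3 and 42.5 in aged sham and 66.3, 53.6 and 55.3 in aged ICH. The young groups were apart (log2FC 0.88 ± 0.122 SE, edgeR adjusted *P* = 0.00176), a call made in each of 21 alternatives. In aged mice the groups were apart as well with log2FC 0.56 ± 0.121 SE, edgeR adjusted *P* = 0.014, under FC 1.5. Col20a1 was at 9.56, 10.5 and 11.5 CPM in young sham, 13.6, 13.9 and 16.3 in young ICH, 9.23, 7.99 and 8.05 in aged sham and 8.89, 6.06 and 8.26 in aged ICH. It was lower in all aged ICH than in all young ICH samples (log2FC −0.92 ± 0.144 SE, edgeR adjusted *P* = 0.0601), a call lost only with adjusted *P* among 21 alternatives. The interaction for Col20a1 was log2FC −0.59 ± 0.203 SE, edgeR adjusted *P* = 1.0, with log2FC 0.47 in young and −0.12 in aged ICH vs. sham, and it was lost without aged ICH 2 (−0.45), aged sham 1 (−0.52), young ICH 3 (−0.51) or young sham 1 (−0.53). An exon of Col20a1 overlaps another gene on the same strand. Markers of oligodendrocyte precursors (OPCs), 5 genes, summed to 134 to 147 CPM in young ICH and 92.1 to 107 CPM in aged ICH samples. Of them 2 were called lower in aged ICH (all genes 1.3%), and 1 had a positive log2FC. Their part in the lower Col20a1 was not tested.

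Col9a1, a chain of type IX collagen, had 8 to 37 counts per library and was at 0.719, 0.571 and 0.627 CPM in young sham, 0.406, 0.532 and 0.63 in young ICH, 0.828, 0.91 and 1.11 in aged sham and 0.307, 0.474 and 0.251 in aged ICH. Every aged ICH sample was below every aged sham sample (log2FC −1.47 ± 0.286 SE, edgeR adjusted *P* = 0.00996), and the interaction with age passed the unadjusted criterion (log2FC −1.17 ± 0.401 SE, edgeR adjusted *P* = 1.0). Without the 2 libraries lowest in striatal neuron markers the interaction was log2FC −1.08 and lost its call. The OPC markers summed to 119 to 153 CPM in aged sham and 92.1 to 107 CPM in aged ICH samples, and 2 of the 5 were called down (all genes 2.82%). Their part in the fall of Col9a1 was not tested. Col19a1, known from neurons, was at 11.5, 26.7 and 20.1 CPM in young sham, 7.2, 14.6 and 8.26 in young ICH, 16.8, 12.4 and 23.6 in aged sham and 15.2, 13.8 and 11.2 in aged ICH. It was the 1 collagen gene downregulated in young ICH vs. sham (log2FC −0.95 ± 0.336 SE, edgeR adjusted *P* = 0.0677) and the groups overlapped. The call was lost without young ICH 1 (log2FC −0.76), young ICH 3 (−0.83) or young sham 2 (−0.66). Col9a2, Col12a1, Col14a1 and Col22a1 were called in no comparison. The 65 bases before the start of Col16a1 are shown up to an exon of a neighbouring noncoding gene, and they hold none of the 3 motifs, of which all promoters hold the GC box in 19.6% and the TATA box in 4.18% at that length.
Col16a1 upstream, chr4:130047775-130047839, plus strand, GRCm38.p6: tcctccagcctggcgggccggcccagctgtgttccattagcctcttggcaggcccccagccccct

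The collagens of the choroid plexus list were high in the same 3 libraries rather than across a group. The list was chosen with earlier results of these data known, so this is a description and not a test of where these genes are expressed. Col8a1 and Col8a2 code for the short chains of type VIII collagen, a hexagonal network known from the vascular and corneal endothelium. Col8a1 was at 8.79, 6.66 and 5.08 CPM in young sham, 7.08, 6.66 and 52.8 in young ICH, 5.06, 4.21 and 4.73 in aged sham and 26.7, 35.1 and 6.35 in aged ICH. Its 3 high values were those of young ICH 3, aged ICH 1 and aged ICH 2. It was a DEG in young (log2FC 1.69 ± 0.76 SE, edgeR adjusted *P* = 0.144) and aged ICH vs. sham (log2FC 2.28 ± 0.785 SE, edgeR adjusted *P* = 0.0782), and without the 3 libraries its log2FC was 0.00 and 0.45 and neither call remained. Without young ICH 3 alone the young log2FC was 0.00. The young call was also lost without any 1 of the 3 young sham samples (log2FC 1.52 to 1.91), of the 3 aged sham samples or aged ICH 1 (1.69 each).

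Col8a2 was at 6.94, 3.55 and 2.31 CPM in young sham, 2.03, 2.1 and 34.7 in young ICH, 1.16, 1.72 and 3.11 in aged sham and 9.51, 13.5 and 0.943 in aged ICH and Col9a3, a type IX chain, was at 19.2, 13.7 and 10.8 CPM in young sham, 16.3, 10.3 and 79.5 in young ICH, 9.7, 15 and 12.3 in aged sham and 32.7, 47.5 and 6.72 in aged ICH. Both were high in the same 3 libraries, and within the young sham group both were highest in young sham 1, which had the most choroid plexus marker CPM of the sham samples (535). Neither was a DEG, with log2FC 1.59 ± 1.06 (SE) and 1.28 ± 0.732 in young and 1.99 ± 1.12 and 1.23 ± 0.738 in aged ICH vs. sham. Without the 3 libraries the median of the 5 choroid plexus collagens went from 1.66 to −0.28 in young and from 1.74 to −0.52 in aged ICH vs. sham. All 14 choroid plexus markers had a positive log2FC at both ages (medians 1.77 and 2.91). In edgeR's test 7 of them were called up in aged ICH vs. sham (all genes 7.24%). In young ICH vs. sham 0 were called up (all genes 8.66%), and 0 had an unadjusted *P* under 0.05. Col10a1, the third short chain, had 4 to 32 counts per library and was called in no comparison. Upstream stretches of Col8a1 and Col8a2 are shown as those of the partner chains that were high in the same libraries. Each held 4 GC boxes in capitals, of which 2 overlap in Col8a2, with no CCAAT box and no TATA box.
Col8a1 upstream, chr16:57754738-57754987, minus strand, GRCm38.p6: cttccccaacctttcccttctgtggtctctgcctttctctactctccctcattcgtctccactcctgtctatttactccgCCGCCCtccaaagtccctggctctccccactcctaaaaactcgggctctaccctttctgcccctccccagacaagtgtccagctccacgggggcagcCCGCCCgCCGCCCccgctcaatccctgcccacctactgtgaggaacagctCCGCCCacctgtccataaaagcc
Col8a2 upstream, chr4:126286544-126286792, plus strand, GRCm38.p6: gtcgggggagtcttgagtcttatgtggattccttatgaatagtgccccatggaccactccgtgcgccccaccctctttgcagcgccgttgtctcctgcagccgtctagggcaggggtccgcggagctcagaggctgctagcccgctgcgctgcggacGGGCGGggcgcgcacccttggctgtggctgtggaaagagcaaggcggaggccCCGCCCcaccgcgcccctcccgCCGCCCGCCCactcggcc

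**Figure D5:**
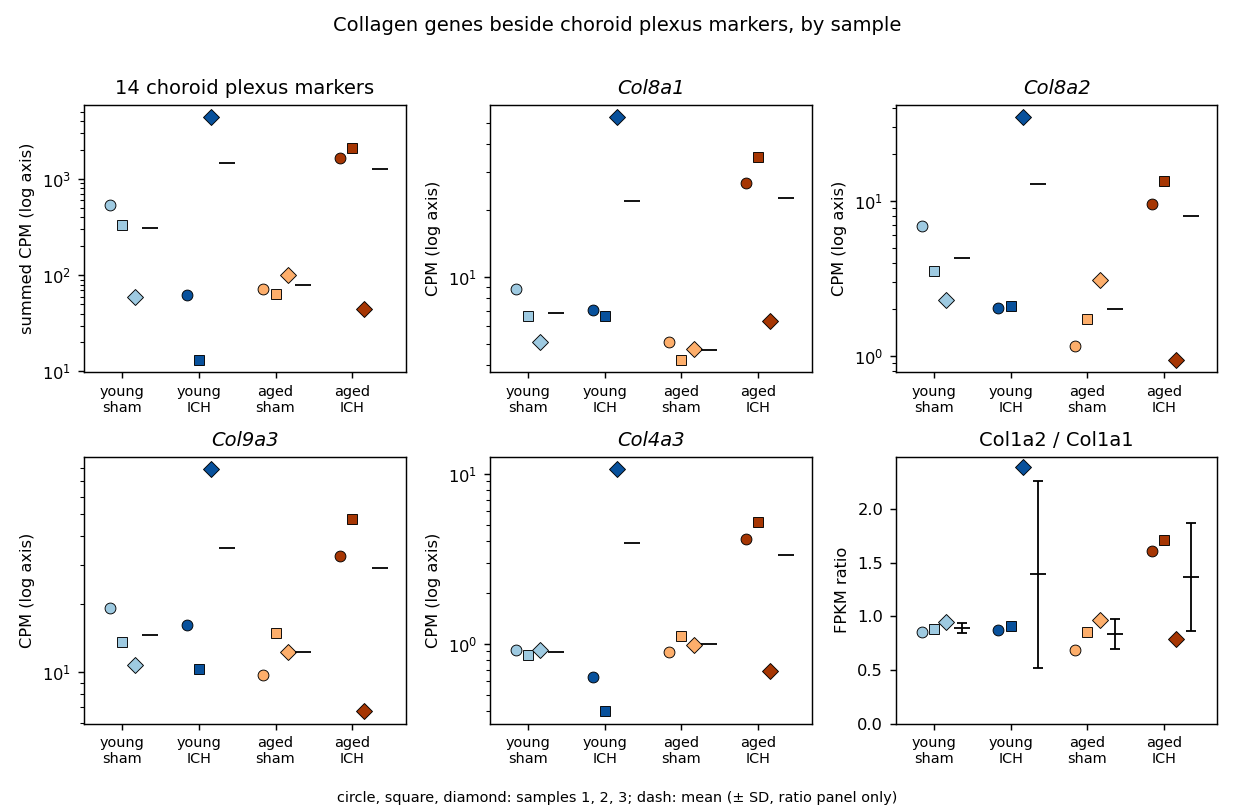
Summed CPM of 14 choroid plexus markers, CPM of Col8a1, Col8a2, Col9a3 and Col4a3 (log axes) and the FPKM ratio of Col1a2 over Col1a1 in each sample, with the group mean as a dash. In all 6 panels young ICH 3, aged ICH 1 and aged ICH 2 are the highest samples, and the ratio reaches 1.61 to 2.40 in them against at most 0.963 elsewhere.

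RefSeq promoters were at hand for 35 of the 44 genes, as 38 sequences. In the 250 bases before the start, 57.9% of the 38 held a GC box (all promoters 32.7%), 34.2% a CCAAT box (all 33.8%) and 13.2% a TATA box (all 12.4%). These shares describe letters and were not tested.

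Transmembrane collagens, whose ectodomains are shed from the cell surface, had 3 calls. Col13a1 had 13 to 53 counts per library and was at 0.912, 1.11 and 0.429 CPM in young sham, 1.36, 1.13 and 1.67 in young ICH, 0.927, 1.42 and 1.23 in aged sham and 1.2, 1.49 and 1.32 in aged ICH. All young ICH samples exceeded all young sham samples (log2FC 0.76 ± 0.306 SE, edgeR adjusted *P* = 0.106), though narrowly, and the call was lost without young ICH 1 (log2FC 0.77), young ICH 3 (0.61) or young sham 3 (0.46). Col23a1 was at 10.7, 7.9 and 5.02 CPM in young sham, 7.66, 8.49 and 9.64 in young ICH, 10.4, 13.5 and 14.6 in aged sham and 8.28, 13.1 and 7.54 in aged ICH. It was higher in aged sham than in young sham with overlapping groups (log2FC 0.70 ± 0.266 SE, edgeR adjusted *P* = 0.323), a call lost without aged sham 2 (log2FC 0.67), aged sham 3 (0.60) or young sham 3 (0.47). Col25a1, made by neurons and known for its presence in amyloid plaques, was at 60.3, 58.8 and 40.8 CPM in young sham, 46.6, 29.8 and 41.9 in young ICH, 45.5, 66.6 and 56.3 in aged sham and 29.6, 44.2 and 29.7 in aged ICH. It was lower in all aged ICH than in all aged sham samples (log2FC −0.70 ± 0.218 SE, edgeR adjusted *P* = 0.0553), a call lost without aged sham 2 (log2FC −0.56). The 8 striatal projection neuron markers had negative log2FC in both comparisons of ICH with sham (medians −0.95 in young and −1.11 in aged mice), with 0 DEGs and 0 at an unadjusted *P* under 0.05 in edgeR's test, and their part in the lower Col25a1 was not tested. Col17a1, Col26a1 and Col28a1 were called in no comparison.

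The effect of age without ICH was read from the sham samples. In aged sham vs. young sham, 4 of 44 genes were upregulated (9.09%, all genes 2.82%) and 0 downregulated by edgeR's unadjusted test, where all genes had 0.898%. These were Col2a1, Col5a3, Col6a3 and Col23a1. With an adjusted *P* under 0.05 in edgeR's test 0 were called (all genes 0.0884% up and 0.0093% down). An unadjusted *P* under 0.05 was found for 8 of the 44 genes and for 2653 of the 21495 genes tested. DESeq2 called 4 up and 1 down by the unadjusted criterion. The upregulated genes were 1 without aged sham 3 and 2 without young sham 3, and 3 genes were downregulated without aged sham 2 and 1 without aged sham 3, young sham 1 or young sham 3. The groups did not overlap for 11 genes (25.0%, all genes 21.0%). The interaction of age and ICH had 0 genes up (all genes 0.484%) and 3 down (6.82%, all genes 1.08%), namely Col6a4, Col9a1 and Col20a1, where edgeR's test called 0 of all genes by adjusted *P* and DESeq2 called 0 up and 4 down by the unadjusted criterion. The interaction gave 4 up without young ICH 3 and 1 up without aged ICH 2 or aged sham 2, and it gave 5 down without aged ICH 2 or young ICH 1 and 7 down without young sham 1. The interaction was negative for 33 of the 44 genes, where 10990 of the 21495 genes tested were. For all 6 type IV chains it was negative (log2FC −0.38 to −0.14) without a call. Without young ICH 3 it turned to 2.51 for Col4a3 and 1.80 for Col4a4, both called up, and the median interaction of the 44 genes went from −0.25 to 0.02.

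The machinery that makes and deposits collagen was followed by 5 further lists, whose counts stand against 8.66% up and 3.49% down in young and 7.24% up and 2.82% down in aged ICH vs. sham among all genes tested. Among 15 laminins, nidogens and basement membrane proteoglycans, young ICH raised 4 and lowered 0 relative to sham (median log2FC 0.17), and 1 was up and 1 down in aged mice (median 0.03). Without the 3 libraries rich in choroid plexus markers, or without young ICH 3 alone, 1 was up in young mice, and 2 were up without young sham 3. In aged mice 0 were up and 1 down without the 3 libraries, and leaving out single aged libraries gave 0 or 1 up and 0 to 2 down. Nid1, a nidogen that links laminin to type IV collagen, was at 15.1, 13.3 and 10.6 CPM in young sham, 19.6, 20.4 and 24.9 in young ICH, 11.6, 11.2 and 11.9 in aged sham and 15.1, 13.8 and 15.2 in aged ICH. It rose in young mice (log2FC 0.73 ± 0.127 SE, edgeR adjusted *P* = 0.00378), where its groups were apart. Hspg2 (perlecan) rose in young mice with log2FC 0.83 ± 0.256 SE, edgeR adjusted *P* = 0.0426, a call lost without young ICH 3 (log2FC 0.54). Nid2 was at 5.72, 4.19 and 2.87 CPM in young sham, 5.80, 6.02 and 16 in young ICH, 4.20, 5.63 and 5.60 in aged sham and 10.1, 11.3 and 7.23 in aged ICH. It was called up in young (log2FC 1.12) and aged mice (0.89) without an adjusted *P* under 0.05 in edgeR's test, and the young call was lost without young ICH 3 (0.47) or young sham 3 (0.90). The aged call was lost without the 3 libraries (0.50) and without aged ICH 1, aged ICH 2 or any 1 of the 3 aged sham samples (0.75 to 0.96). Lama3 was lower in aged ICH vs. sham (log2FC −0.63), a call lost without aged ICH 1, aged ICH 3, aged sham 2 or aged sham 3 (−0.61 to −0.44).

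Of 18 genes for hydroxylation, glycosylation and folding of procollagen, 5 were up in young and 2 in aged ICH vs. sham, with 0 down (medians 0.38 and 0.28). In young mice 3 were up without the 3 libraries or without young ICH 3 alone, and in aged mice 2 were up without the 3 libraries. Serpinh1 codes for HSP47, the chaperone of the collagen triple helix, and was at 25.2, 22.6 and 22.8 CPM in young sham, 40.5, 38.5 and 73 in young ICH, 19, 15.4 and 22.8 in aged sham and 42, 40.3 and 35.1 in aged ICH. All ICH samples exceeded all sham samples of the same age, with log2FC 1.11 ± 0.218 SE, edgeR adjusted *P* = 0.00615 in young and log2FC 1.04 ± 0.219 SE, edgeR adjusted *P* = 0.0131 in aged mice. Crtap, a subunit of the prolyl 3-hydroxylase complex, rose by log2FC 0.61 ± 0.149 (SE) in young and 0.89 ± 0.150 in aged mice, and the young call was lost without young ICH 3 (0.42). P4ha3, a prolyl 4-hydroxylase subunit, rose in young mice (log2FC 0.90 ± 0.203), as did Sparc, which binds collagen (0.73 ± 0.237), a call lost without young ICH 1 (0.50) or young sham 2 (0.58).

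Of 12 genes for cleavage and cross-linking of procollagen, 7 were up and 1 down in young, and 5 up and 2 down in aged ICH vs. sham (medians 0.73 and 0.49). The counts without the 3 libraries were 6 up and 1 down in young and 5 up and 2 down in aged mice. The 1 down in young mice was lost without young ICH 2, young sham 1 or young sham 2, and 3 were up in aged mice without aged sham 2. Bmp1, the procollagen C-proteinase, was at 68.7, 82.5 and 74.9 CPM in young sham, 119, 122 and 125 in young ICH, 83.2, 77.4 and 85.3 in aged sham and 131, 104 and 137 in aged ICH, with log2FC 0.69 ± 0.0977 SE, edgeR adjusted *P* = 0.00183 in young and log2FC 0.59 ± 0.0975 SE, edgeR adjusted *P* = 0.00558 in aged mice. The aged call, near FC 1.5, was lost without aged ICH 1, aged ICH 3 or aged sham 2 (log2FC 0.52 to 0.55). Of the 4 lysyl oxidase-like genes, which cross-link collagen and elastin, Loxl1, Loxl2 and Loxl4 rose from low levels, and Loxl3 had log2FC 0.21 in young and 0.22 in aged mice without a call. Loxl1 was at 2.02, 1.55 and 2.18 CPM in young sham, 4.0, 4.86 and 8.67 in young ICH, 2.38, 2.06 and 2.34 in aged sham and 5.33, 5.35 and 3.61 in aged ICH, with log2FC 1.61 ± 0.279 (SE) in young and 1.08 ± 0.276 in aged mice. Loxl4 had log2FC 1.98 ± 0.354 in young and 1.68 ± 0.360 in aged mice, and Loxl2 1.55 ± 0.384 and 0.99 ± 0.385. The aged call of Loxl2 was lost without aged ICH 3 (0.97) or aged sham 2 (0.90). All sham samples of Loxl1, Loxl2 and Loxl4 lay below all ICH samples of the same age. Of 9 collagen receptors that could be tested, 0 were DEGs at either age in edgeR's test (medians 0.18 and 0.26). An unadjusted *P* under 0.05 was found for 2 in young and 1 in aged mice, and for 7132 and 6216 of all 21495 genes tested. Single left-out libraries gave 0 to 2 up in young and 0 to 1 up in aged mice. Of 6 small leucine-rich proteoglycans that decorate fibrils, 2 were up in young and 1 in aged mice (medians 0.44 and 0.09), and 1 was up at each age without the 3 libraries. Lum (lumican) rose in young mice (log2FC 0.60 ± 0.272), close to the criterion, with 0.31 and no call without young ICH 3 and no call without any 1 of 5 other libraries (0.44 to 0.60). Dcn (decorin) was at 16, 11.6 and 9.73 CPM in young sham, 34.1, 28.1 and 42.8 in young ICH, 15.8, 15.7 and 20.1 in aged sham and 31.3, 30.2 and 30.8 in aged ICH, with log2FC 1.49 ± 0.186 SE, edgeR adjusted *P* = 0.00137 in young and log2FC 0.84 ± 0.183 SE, edgeR adjusted *P* = 0.0143 in aged mice.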

How the data were processed

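RNA-seq of 12 pooled samples, 3 per group, was analysed from the table of all genes. For the deposited counts, the authors removed low-quality and adapter-bearing reads, aligned the remaining paired-end reads with HISAT2 to GRCm38.p6 and counted them per gene with featureCounts. The deposited FPKM were computed by the authors from the same reads and are scaled to transcript length and library size. Libraries were made with the NEBNext Ultra RNA kit. The strand setting of the count and the treatment of multi-mapped reads are not given in the sources used here, so reads of overlapping genes (13 of the 44) may be shared. Columns of the authors' own comparisons were not used, and 0 sample columns were left unmapped.

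Genes that passed edgeR's filter at a minimum count of 10 (21495 of 54833) were normalized by TMM (factors 0.954 to 1.041) and fitted with edgeR 4.0.16 (R 4.3.3) by quasi-likelihood over the 4 groups, with 2 comparisons of ICH with sham, 2 of aged with young and their interaction. A DEG had FC above 1.5 or below 0.67 with *P* under 0.05, the limits of the study, whose test was DESeq2. Adjusted *P* are Benjamini-Hochberg values over all genes tested. CPM use TMM library sizes. The fit was tested on simulated data with known changes. Counts of 28410896 to 37785160 per library limit the precision of genes with few counts, such as Col9a1 and Col10a1. No pair of libraries held identical values.

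The 44 genes, the classes, the list of choroid plexus collagens, the marker and pathway lists and the tests were chosen with earlier results of these data known. Values per sample are given for each collagen gene called a DEG in any comparison, for 9 fixed genes and for Col6a1. Of the 9, only Col8a2 and Col9a3 were not DEGs as well. Up to 4 genes of each pathway list were named by smallest *P*. Alternatives were adjusted *P*, DESeq2 1.42.0, RLE size factors, no filter on low counts, only the 2 groups compared, the replicate number as a block, limma-trend 3.58.1 on log2(FPKM + 1) and leaving out each library. Leaving out the 3 libraries highest in choroid plexus markers, or the 2 lowest in striatal neuron markers, was added after the data were seen, as were all alternatives for the pathway lists. Sequences were read from RefSeq tables and the genome of GRCm38.p6, where 35 of the 44 genes had a promoter, and motifs were searched by letters on both strands.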

Additional observations from a re-analysis of the deposited data

Results flagged for a closer look

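Responses to ICH that differed between young and aged mice by the interaction test, at an unadjusted *P* under 0.05 and FC beyond the limits, were found for 3 collagen genes and 2 partners, each with an edgeR adjusted *P* near 1 over all genes. Col6a4 differed by log2FC −0.99, Col9a1 by −1.17 and Col20a1 by −0.59 (more negative in aged mice), with the values of every sample given above. Lox, a lysyl oxidase, differed by log2FC −0.95 (0.73 in young and −0.22 in aged ICH vs. sham), and its CPM were 1.32 to 2.05 in young sham, 1.90 to 2.99 in young ICH, 1.59 to 2.60 in aged sham and 1.35 to 2.57 in aged ICH samples. Dcn differed by log2FC −0.65 (1.49 in young and 0.84 in aged ICH vs. sham). No cause was tested.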

How the results depend on the processing

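Of 33 calls on collagen genes, 8 were made in each alternative run, 14 in each but adjusted *P* and limma-trend on log2(FPKM + 1), 8 were lost without the 3 libraries highest in choroid plexus markers, and 0 changed sign. Counts of called genes stayed within 1.5 times of those reported in 156 cases and did not in 52, and class medians moved by less than the spread between replicates in 376 cases and by more in 20. Depth limits genes such as Col9a1, Col10a1, Col13a1 and Col2a1, with under 60 counts in some libraries. For each change the cause was not tested. CPM per kilobase of deposited gene length was not run, since the table used gives no length.

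In young ICH vs. young sham the 10 upregulated genes became 6 with adjusted *P*, 5 with limma, 6 without the 3 libraries and 6 to 14 without single libraries, and the 1 downregulated gene became 0 with adjusted *P*, 0 with limma, 2 with no filter on low counts and 0 to 3 without single libraries. In aged ICH vs. aged sham the 4 upregulated genes became 2 with adjusted *P*, 9 with no filter, 8 with only the 2 groups compared and 3 to 9 without single libraries, and the 3 downregulated genes became 1 with limma, 6 without the 3 libraries and 2 to 4 without single libraries. In aged sham vs. young sham the 4 upregulated genes became 0 with adjusted *P*, 0 with limma and 1 to 6 without single libraries, and the 0 downregulated genes became 1 with DESeq2, with RLE size factors, with only the 2 groups compared and without the 3 libraries, and 0 to 3 without single libraries. In aged ICH vs. young ICH the 2 upregulated genes became 0 with adjusted *P*, 1 with DESeq2, RLE size factors or limma, 5 without the 3 libraries and 0 to 8 without single libraries, and the 6 downregulated genes became 0 with adjusted *P*, 1 with limma and 3 to 9 without single libraries. For the interaction the 0 upregulated genes became 1 without the 3 libraries and 0 to 4 without single libraries, and the 3 downregulated genes became 0 with adjusted *P*, 0 with limma, 5 with no filter and 2 to 7 without single libraries.

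The replicate numbers did not pair the samples (correlation of deviations of same-numbered samples −0.45 to 0.24, median −0.04). With the replicate number as a block the upregulated genes were 9, 4, 3, 2 and 0 and the downregulated genes 1, 3, 0, 4 and 3 in the 5 comparisons in the order above, and signs turned for the interaction of Col4a3 (0.249), Col4a4 (0.226) and Col9a3 (0.086), for Col4a3 (0.391) and Col4a4 (0.206) in aged vs. young ICH and for Col4a4 in aged vs. young sham (−0.02).

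Median log2FC of all 44 genes were 0.041 in young and −0.27 in aged ICH vs. sham without the 3 libraries, and over single libraries 0.041 to 0.49 in young ICH vs. sham and −0.34 to 0.135 in aged vs. young ICH. Type IV medians in young mice were 0.39 with limma, 0.28 without the 3 libraries and 0.28 to 1.15 over single libraries, and −0.024 in aged mice without the 3 libraries. Fibrillar medians without the 3 libraries were −0.28 in aged ICH vs. sham and 0.33 in aged vs. young ICH, the latter −0.13 without the 2 libraries lowest in striatal neuron markers and −0.11 to 0.325 over single libraries. They ranged over single libraries from −0.039 to 0.25 in aged vs. young sham and from −0.60 to −0.175 for the interaction, which was −0.11 with limma. Choroid plexus collagens had −0.28 in young and −0.52 in aged mice without the 3 libraries, and over single libraries −0.28 to 2.12 in young ICH vs. sham, −0.72 to 1.83 in aged vs. young ICH and −0.51 to 2.28 for the interaction.

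Among the genes followed, signs reversed only for changes that were not called, though 7 of these, on Col4a3, Col4a4, Col8a2 and Col9a3, were called with the other sign in an alternative. Without the 3 libraries reversals were, in young ICH vs. sham, Col4a3 (−0.775), Col4a4 (−0.28), Col8a2 (−1.05) and Col9a3 (−0.13), in aged ICH vs. sham Col1a2 (−0.365), Col4a3 (−0.52), Col4a4 (−0.265), Col8a2 (−1.08) and Col9a3 (−0.865), in aged vs. young ICH Col4a3 (0.403), Col4a4 (0.037) and Col8a1 (−0.11), and for the interaction Col4a3 (0.255), Col4a4 (0.013) and Col8a2 (−0.029). Without the 2 libraries lowest in striatal neuron markers they were Col8a1 in aged vs. young ICH (−0.53) and Col8a2 for the interaction (−0.25). With limma they were Col4a2 in aged vs. young sham (0.025), Col4a3 (0.005) and Col4a4 (0.025) in aged vs. young ICH and, for the interaction, Col4a4 (0.015) and Col9a3 (0.075). Over single libraries the ranges were, in young ICH vs. sham, −0.015 to 0.485 for Col1a1, −0.774 to 2.656 for Col4a3, −0.28 to 2.12 for Col4a4, −1.05 to 2.14 for Col8a2 and −0.13 to 1.72 for Col9a3, and in aged ICH vs. sham −0.71 to 0.061 for Col3a1. In aged vs. young sham they were −0.062 to 0.052 for Col4a1, −0.038 to 0.026 for Col4a2, −0.144 to 0.158 for Col4a4 and −0.42 to 0.007 for Col9a3. In aged vs. young ICH they were −0.56 to 0.023 for Col18a1, −0.758 to 2.664 for Col4a3, −0.572 to 1.829 for Col4a4, −0.42 to 1.72 for Col8a1, −1.30 to 1.95 for Col8a2 and −0.84 to 1.12 for Col9a3. For the interaction they were −0.80 to 0.15 for Col1a2, −0.907 to 2.513 for Col4a3, −0.599 to 1.801 for Col4a4, −0.21 to 3.04 for Col8a2 and −0.59 to 1.37 for Col9a3.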
